A study of Mus musculus with 6 samples.

Results

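The genes described here are 9 members of the poly(ADP-ribose) polymerase (PARP) family, Parp2, Parp3, Parp4, Parp8, Parp9, Parp10, Parp11, Parp12 and Parp14, together with Dtx3l, which encodes the ubiquitin ligase partner of Parp9. They were chosen by name, as 10 of 53618 named genes, and Parp1 was not among them. They were followed by bulk RNA-seq in 6 libraries of AE9a leukemia cells, 1 per mouse, in 2 groups of 3. AE9a is a truncated AML1-ETO fusion that was introduced with GFP into mouse fetal liver cells by a retrovirus. All cells, controls included, carried 1 wild-type and 1 floxed Usp18 allele (Usp18+/f) and the tamoxifen-inducible UBCER-Cre, a recombinase driven in all tissues by the ubiquitin C promoter. They had been transplanted into sub-lethally irradiated C57BL/6 recipients, so the spleens also held host cells. Once sick, the recipients received oil, which leaves Usp18+/f cells, or tamoxifen, which is meant to give Usp18+/Δ cells. GFP+Lin-c-Kit+ cells were sorted from the spleen 3 days after the first injection. Per the study's methods, the mice were young adults of both sexes. The comparison asks how transcripts respond when 1 allele of Usp18, which encodes a negative regulator of interferon signaling, is removed.

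PARP-family enzymes take ADP-ribose from NAD and attach it to proteins, as single units or as chains. Parp2 and Parp3 act at DNA strand breaks in the nucleus, whereas a branch that includes Parp9, Parp10, Parp11, Parp12 and Parp14 is switched on by interferon in many cell types and takes part in antiviral responses. Parp9 has little or no activity alone and works in a complex with Dtx3l, which can ubiquitinate histones and viral proteins, and the genes of this pair lie head to head. From this general knowledge, Parp9, Dtx3l, Parp14, Parp10, Parp12 and Parp11 were taken as the 6 interferon-induced members, and Parp2, Parp3, Parp4 and Parp8 as the other 4.

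The interferon-induced members were spread over 3 chromosomes, and 3 of them lay together. On chromosome 16 of GRCm38, Parp14 ran from 35832874 to 35871544 on the minus strand, Dtx3l from 35926511 to 35939151 on the minus strand, and Parp9 from 35938470 to 35972605 on the plus strand. The 5′ ends of Dtx3l and Parp9 overlapped by 682 bases on opposite strands, and 54966 bases separated Parp14 from Dtx3l. Parp10 lay on chromosome 15 (76231174 to 76243441), and Parp12 (39086410 to 39118349) and Parp11 (127446840 to 127494261) lay far apart on chromosome 6. Of the other members, Parp2 (50807841 to 50821301) and Parp4 (56575619 to 56659794) lay on chromosome 14, Parp3 (106470322 to 106476949) on chromosome 9 and Parp8 (116854820 to 117025537) on chromosome 13.

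Upstream sequence was taken from the RefSeq promoter table (GRCm38.p6), which gave 8 windows for 7 of the 10 members; Parp9, Parp10 and Parp14 had none. Both strands of each window of 300 bases were searched for GAAA followed after any 2 bases by GAAA again, the core letters of the interferon-stimulated response element, and for TTCNNNGAA, the core letters of the interferon-gamma-activated site. Of 32851 windows in the table, 3.44% held the first motif and 8.3% the second. Parp11 is shown because it was the interferon-induced member whose window held a match, Parp4 because it matched without being counted as interferon-induced, and Dtx3l because its upstream stretch lies inside Parp9. Capitals mark the matched letters, and each sequence reads 5′ to 3′ on the strand of its gene.
Parp11, chr6:127446590-127446839, plus strand: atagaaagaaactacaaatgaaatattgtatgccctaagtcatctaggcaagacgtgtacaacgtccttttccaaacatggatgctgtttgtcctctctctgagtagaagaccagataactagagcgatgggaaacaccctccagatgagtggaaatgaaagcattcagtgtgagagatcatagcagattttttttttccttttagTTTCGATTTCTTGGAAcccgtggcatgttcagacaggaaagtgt
Parp4, chr14:56575426-56575618, plus strand: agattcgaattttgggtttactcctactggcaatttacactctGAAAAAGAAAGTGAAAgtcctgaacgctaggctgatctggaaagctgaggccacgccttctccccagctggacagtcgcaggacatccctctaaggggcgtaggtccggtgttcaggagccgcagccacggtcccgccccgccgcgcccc
Dtx3l, chr16:35939207-35939277, minus strand: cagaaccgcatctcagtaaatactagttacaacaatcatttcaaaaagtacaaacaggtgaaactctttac

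In Parp11 the run TTTCGATTTC matched the first motif on the opposite strand, 34 bases before the gene's start. TTCTTGGAA matched the second motif 28 bases before the start and shared its first letters with that run. A further Parp11 window, at a start site inside the gene, held no match. In Parp4 GAAAAAGAAA and GAAAGTGAAA, which overlap each other, lay 140 and 134 bases before the start. No match lay in the windows of Dtx3l, Parp12, Parp2, Parp3 and Parp8. These matches describe letters in a short window and were not compared with any measurement of binding.

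Some features of the libraries touch every value below. The deposited values, called normalized counts here, are reads per gene divided by 1 factor per library, and they came from 19172471 to 23785143 reads. Usp18 did not fall with its label. Its normalized counts were 217, 214 and 176 under the oil label and 477, 329 and 284 under the tamoxifen label. Below, oil and tamoxifen therefore name libraries by their labels, each given in the order 1, 2 and 3. The library labelled tamoxifen 1 stood apart, with a median correlation with the others across genes of 0.913 against 0.981 to 0.990, and 0.00923% mitochondrial reads against 1.01% to 1.56%. Kit, Runx1, Gata2 and Myb, markers of immature progenitors, were abundant in all libraries, while the granule genes Mpo, Elane and Prtn3 stayed at or below 31.4 normalized counts and the erythroid factor Klf1 lay between 4942 and 11837. Of these granule genes, Mpo (at most 4.64 under oil, at least 6.39 under tamoxifen) and Elane (at most 1.86 under oil, 10.2, 11.1 and 10 under tamoxifen) did not overlap between the groups. Elane reached 10, the value needed for testing, under tamoxifen alone, and Mpo was not tested, so nothing is read from either. Runx1 (at least 11592 under oil, at most 11220.1 under tamoxifen) and Myb (at least 5328 and at most 5188) were lower in all 3 tamoxifen libraries, while Kit, Gata2 and Cd34 (287.5 to 843 and 201 to 1052) overlapped. The log2 fold changes of Runx1 and Myb were -0.18 and -0.40 (limma adjusted p = 0.666 each), or -0.13 and -0.16 without tamoxifen 1. Of all 12298 genes tested, 967 were higher and 1192 lower under tamoxifen with no overlap. Bulk RNA cannot tell fewer cells of a type from less RNA per cell.

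Parp9 was the member that separated the groups most evenly. Its normalized counts were 2031, 2056 and 1968 under oil and 2384, 2653 and 2627 under tamoxifen. Each of the tamoxifen libraries exceeded each of the oil libraries. Oil averaged 2018.4 ± 45.0 and tamoxifen 2555 ± 149 (SD, n = 3 each), so the tamoxifen mean was 126.6% of the oil mean. The log2 fold change was 0.34 (standard error 0.13, 95% interval 0.031 to 0.65), for which limma gave an unadjusted p of 0.0355 and an adjusted p of 0.666. Of the 12298 genes tested, 17.8% had a higher log2 fold change. Without tamoxifen 1 the change was 0.39 (standard error 0.072) and the limma adjusted p was 0.0813. Parp9 thus lay above oil in all 3 tamoxifen libraries and did not pass the threshold of 0.05 after adjustment over all genes.

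Dtx3l, the ligase of the same complex, was split by a single library. Its normalized counts were 2541, 2671 and 2372 under oil, and 1880.0, 3338 and 3188 under tamoxifen. Tamoxifen 2 and 3 lay above all oil libraries, and tamoxifen 1 lay below all of them. The means were 2528 ± 150.0 and 2802 ± 802 (SD, n = 3 each), with a log2 fold change of 0.10, a 95% interval of -0.48 to 0.69 (limma adjusted p = 0.829). Without tamoxifen 1 the change was 0.37, with an interval of 0.19 to 0.55 (limma adjusted p = 0.125). Leaving out tamoxifen 2 or tamoxifen 3 gave -0.044 or -0.011 instead, so the sign of the Dtx3l change depended on which library was left out.

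Parp14, a mono-ADP-ribosyltransferase with macrodomains that lies beside this pair, was above oil in 2 of the 3 tamoxifen libraries. It reached 3139, 3559 and 2954 normalized counts under oil, and 3209, 4069 and 3675 under tamoxifen. Tamoxifen 1 fell inside the range of the oil libraries and the other 2 lay above it. The means were 3217 ± 310.1 and 3651 ± 430.1 (SD, n = 3 each), the log2 fold change was 0.18 with an interval of -0.19 to 0.55, and limma gave an adjusted p of 0.666. Without tamoxifen 1 the change was 0.27 with an interval of 0.056 to 0.48 (limma adjusted p = 0.302).

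Within the chromosome 16 cluster, Dtx3l and Parp9 kept a similar proportion in 5 libraries. The log2 ratio of Dtx3l to Parp9 was 0.32, 0.38 and 0.27 under oil and -0.34, 0.33 and 0.28 under tamoxifen. Tamoxifen 2 and 3 lay within the oil range, whereas tamoxifen 1 held more Parp9 than Dtx3l, the reverse of all others. The log2 ratio of Parp14 to Parp9 was 0.63, 0.79 and 0.59 under oil and 0.43, 0.62 and 0.48 under tamoxifen, with tamoxifen 2 inside the oil range and the other 2 below it. Dtx3l and Parp9 overlap on opposite strands over 682 bases of gene span, and the counting's strand setting is not given in the sources used here. Reads from any exon bases shared there therefore cannot be assigned with certainty, and how many of the 682 bases are exon in both was not computed. The low antisense gene Gm15564 also overlaps Parp9. Within 500000 bases around the cluster, 9 other genes were tested. Of these, 3 had a positive and 6 a negative log2 fold change, with a median of -0.24, or -0.046 without tamoxifen 1.

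**Figure D1:**
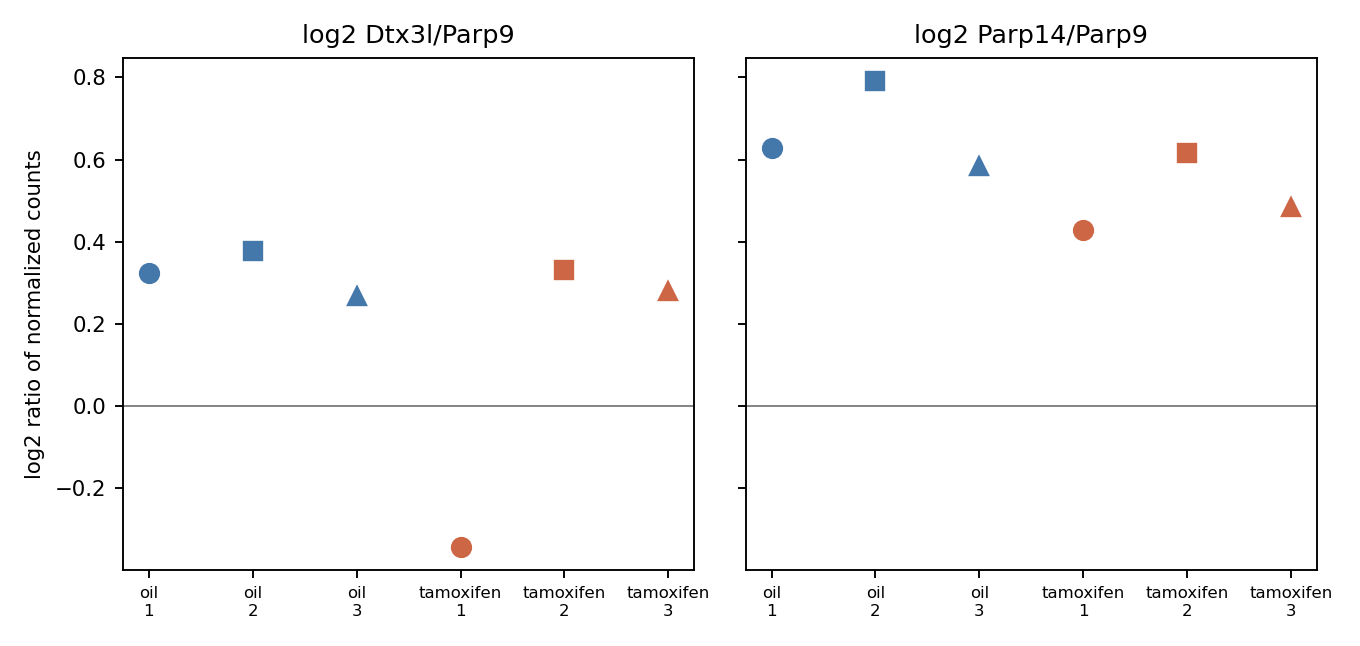
Log2 ratios of normalized counts of Dtx3l to Parp9 (left) and of Parp14 to Parp9 (right) on the y axis, with 1 point per library along the x axis (blue, labelled oil; orange, labelled tamoxifen; marker shape gives the replicate number). The left ratio lay between 0.27 and 0.38 in 5 libraries and at -0.34 in tamoxifen 1, while the right ratio lay between 0.43 and 0.79 in all 6.

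Parp10, a mono-ADP-ribosyltransferase of the cytoplasm, had the largest fold change of the members over all libraries, and most of it came from 1 library. It had 1374, 1413 and 1406 normalized counts under oil, and 3682, 1596 and 1663 under tamoxifen. All 3 tamoxifen libraries lay above the narrow oil range, tamoxifen 1 far above it. The means were 1398 ± 20.7 and 2314 ± 1185 (SD, n = 3 each), or 165.5% of oil, with a log2 fold change of 0.61, an interval of -0.18 to 1.40 (limma adjusted p = 0.666). Without tamoxifen 1 the tamoxifen mean was 116.6% of oil and the log2 fold change 0.22, with an interval of 0.049 to 0.39 (limma adjusted p = 0.294).

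Parp12, a zinc-finger member that binds RNA, had 391, 428 and 418 normalized counts under oil and 606, 516 and 427 under tamoxifen. The groups overlapped, since tamoxifen 3 lay just below oil 2. The log2 fold change was 0.31 with an interval of -0.14 to 0.76 (limma adjusted p = 0.666), and it was 0.19 without tamoxifen 1 (adjusted p = 0.572).

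Parp11, which ADP-ribosylates single residues and has been linked to the interferon receptor, went the other way over all libraries. It had 526, 515 and 478 normalized counts under oil and 294, 534 and 507 under tamoxifen. Only tamoxifen 1 was low, and the other 2 lay among or just above the oil libraries. The log2 fold change of -0.23 had an interval of -0.86 to 0.39 (limma adjusted p = 0.685). Once tamoxifen 1 was left out it was 0.042 with an interval of -0.19 to 0.27 (adjusted p = 0.907). Parp11 was the interferon-induced member with the smallest change once that library was left out.

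Among the other members, Parp2, which senses DNA strand breaks, had 923, 866 and 979.6 normalized counts under oil and 713, 1017 and 911 under tamoxifen. The groups overlapped and the log2 fold change was -0.082 with an interval of -0.52 to 0.35 (limma adjusted p = 0.823), or 0.063 without tamoxifen 1 (adjusted p = 0.838). Parp4, the PARP of the vault particle, had 721, 803 and 712 under oil and 492, 809 and 803 under tamoxifen. Its log2 fold change was -0.12 with an interval of -0.68 to 0.44 (limma adjusted p = 0.795). Without tamoxifen 1 it was 0.11 (adjusted p = 0.673), and both remaining tamoxifen libraries, at 809.2 and 803.0, were just above oil 2 at 802.7.

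Parp3, which acts on double-strand breaks, had 171, 175 and 127 normalized counts under oil and 158.5, 157.6 and 165 under tamoxifen. The tamoxifen values lay inside the oil range, with a log2 fold change of 0.039 and an interval of -0.47 to 0.54 (limma adjusted p = 0.932). Parp3 overlaps Rrp9 on the opposite strand, so its reads carry the same uncertainty as those of Dtx3l. Parp8, a member of the mono-ADP-ribosylating branch, had no reads under oil and 1, 3 and 5 reads under tamoxifen. It did not pass the filter on low values, and no fold change is given. Taken alone, a library with a count of 0 allows up to 3 reads, a limit that only tamoxifen 3 exceeded. Tamoxifen 3 also held reads of more genes than any other library, 20205 named genes against 17335 to 18606. The 3 oil libraries together, all at 0, allow fewer reads per library, and that joint limit was not computed.

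**Figure D2:**
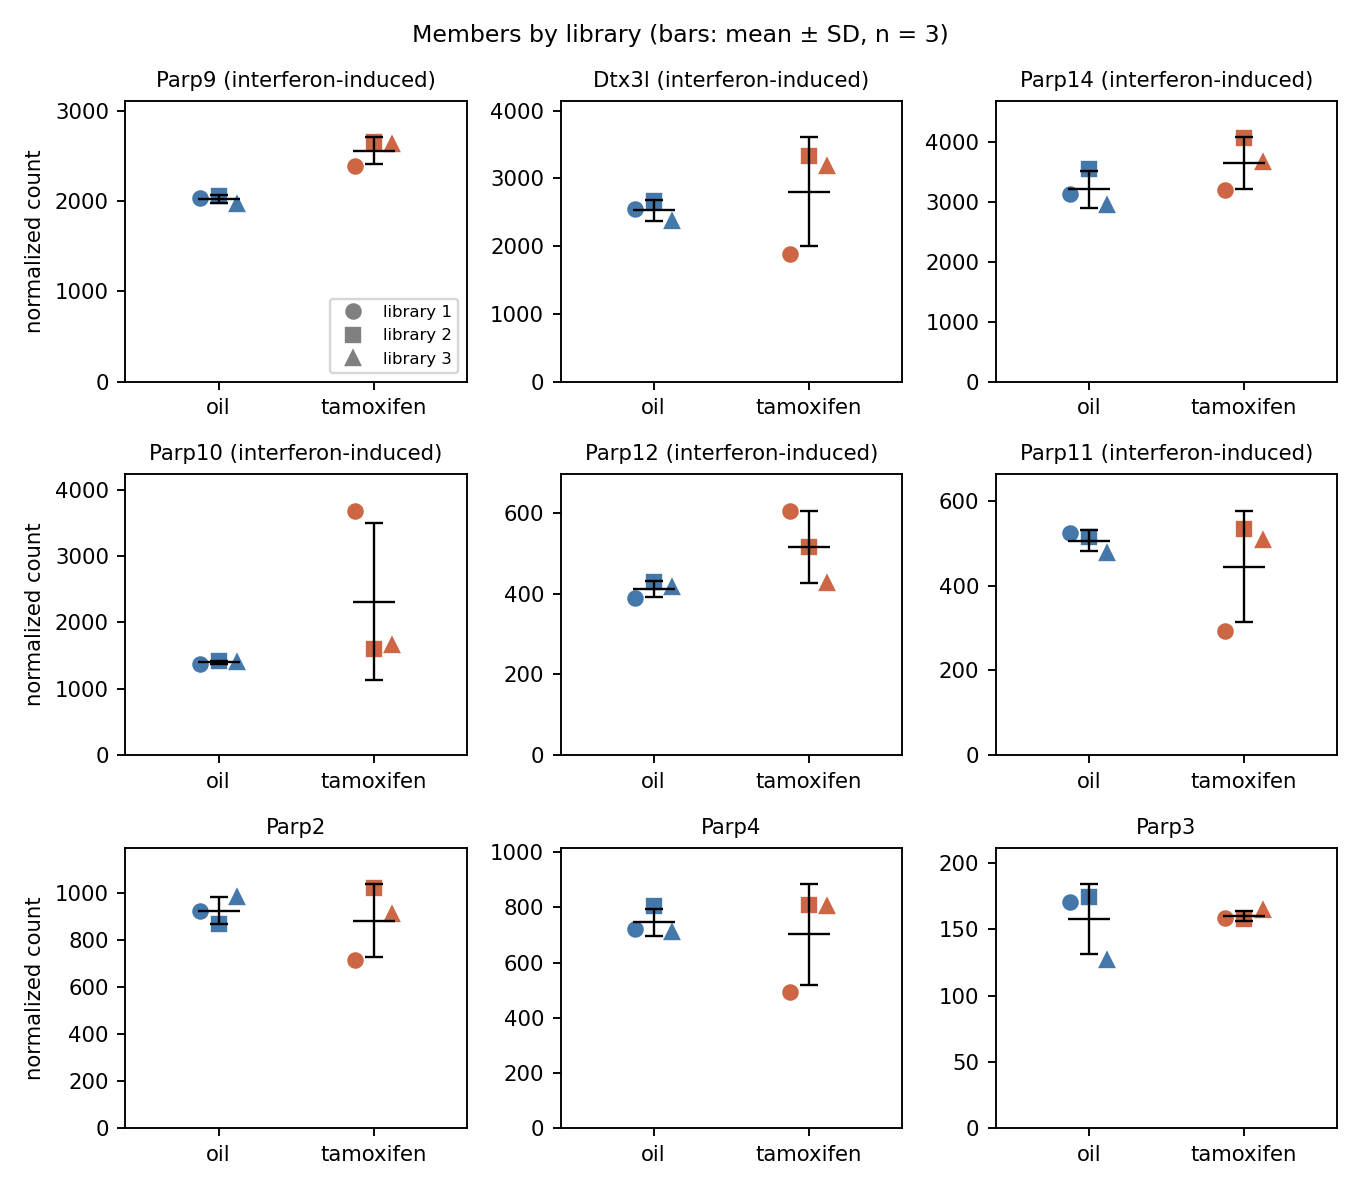
Normalized counts (y axis, from 0) of the 9 tested members in each library, grouped along the x axis as labelled oil (blue) or tamoxifen (orange); marker shape gives the replicate number, and bars show the mean ± SD (n = 3). Parp9 and Parp10 are the genes whose groups do not overlap, and the tamoxifen 1 circle is the lowest tamoxifen point of Parp9, Dtx3l, Parp14, Parp11, Parp2 and Parp4 and the highest of Parp10 and Parp12.

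Over the 9 members tested, limma called 0 at an adjusted p of 0.05 with all 6 libraries, where it called 0% of all 12298 genes. At an unadjusted p under 0.05 it found 1 member, Parp9, against 550 genes (4.47%). edgeR's quasi-likelihood test on recovered reads called 0 members and 0 genes, with 596 genes (4.85%) at an unadjusted p under 0.05, and DESeq2 called 0 members and 71 of 24246 genes (0.293%). Without tamoxifen 1, limma called 0 members and 41 genes (0.333%), edgeR 0 members and 46 genes (0.374%), and DESeq2 2 members, Parp9 (adjusted p = 0.00186) and Dtx3l (adjusted p = 0.00705), and 231 of 23788 genes (0.971%, or 0.736% counted as higher only). With library weights, which gave tamoxifen 1 a weight of 0.0377, limma also called these 2 members (adjusted p = 0.0116 and 0.0349), among 782 genes (6.36%, or 3.82% higher only). In both settings the called members were higher under tamoxifen. The calls on Parp9 and Dtx3l therefore rested on setting tamoxifen 1 aside and on the test used. The DESeq2 shares are over all genes with a p, which include low genes that DESeq2 gives no adjusted p and so cannot call. They are thus lower than shares over callable genes and not comparable with those of limma and edgeR.

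**Figure D3:**
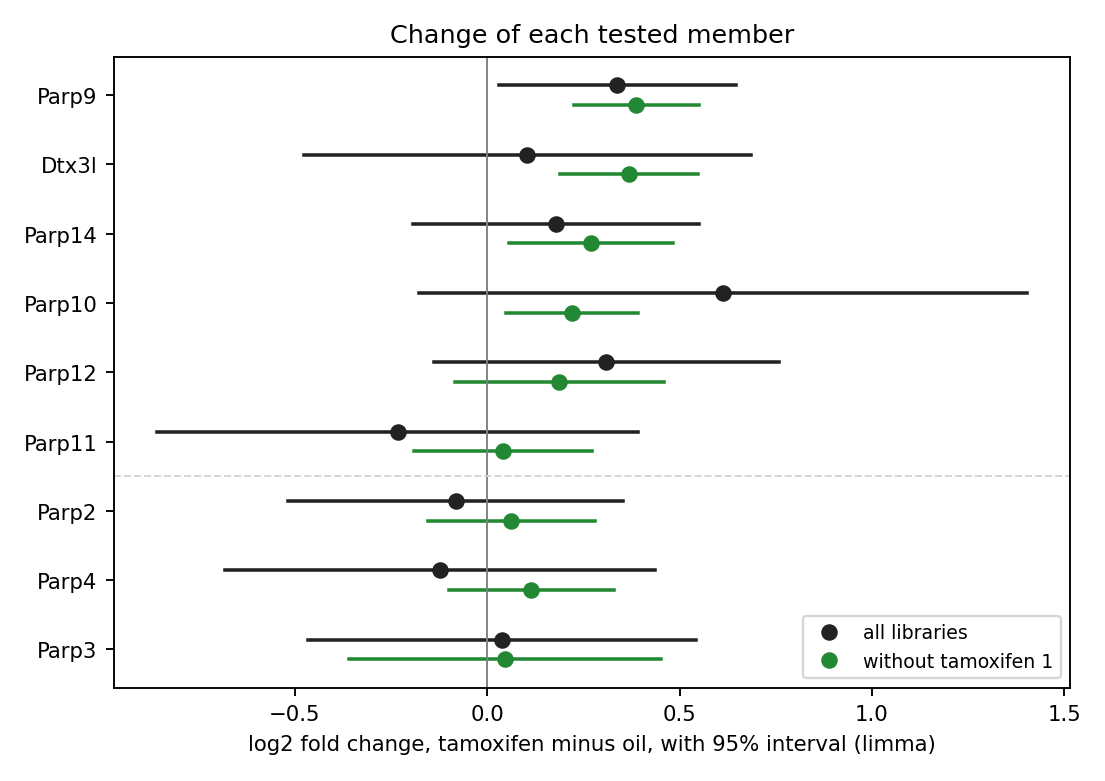
Log2 fold change of each tested member (x axis, tamoxifen minus oil, with the 95% interval from limma), over all 6 libraries (black) and without the library labelled tamoxifen 1 (green); the dashed line separates interferon-induced members (above) from the others. Leaving out tamoxifen 1 narrows the Dtx3l interval from -0.48 to 0.69 down to 0.19 to 0.55 and moves Parp10 from 0.61 to 0.22.

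The median change of the interferon-induced members lay above that of the others. Of the 6, 5 had a positive log2 fold change with a median of 0.24, and of the 3 other members tested, 1 was positive with a median of -0.082, beside a median of -0.017 over all genes tested. The difference of the 2 medians was 0.33 with all libraries and 0.18 without tamoxifen 1, where all 9 were positive, the medians were 0.25 and 0.063, and that of all genes was -0.021. In 2 of the 6 interferon-induced members and in 0 of the 3 others the tamoxifen libraries lay wholly above the oil libraries, beside 7.86% of all genes tested. Without tamoxifen 1 this held for 4 of 6 (Parp9, Dtx3l, Parp14 and Parp10) and for 1 of 3 (Parp4), beside 12.6% of all genes. With so few members, no test of the difference between the classes was run.

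Each tamoxifen library showed the same order of the classes when taken alone. The mean log2 deviation from the oil mean over the interferon-induced members was 0.16, 0.29 and 0.20 in tamoxifen 1, 2 and 3, and over the other members -0.31, 0.093 and 0.057. The gap between the classes was widest in tamoxifen 1, at 0.48, against 0.20 and 0.15 in tamoxifen 2 and 3, and between -0.039 and 0.040 in the oil libraries. Summed over the interferon-induced members, the normalized counts were 10002, 10642 and 9596 under oil and 12055, 12707 and 12088 under tamoxifen, with no overlap. The place of tamoxifen 1 rested on Parp10. Without Parp10, left out after seeing the data, the sums were 8628, 9229 and 8190 under oil and 8372, 11110.2 and 10424 under tamoxifen, so that tamoxifen 1 fell inside the oil range. The mean deviation without Parp10 was -0.0068, 0.068 and -0.061 under oil and -0.082, 0.31 and 0.19 under tamoxifen. On this measure tamoxifen 1 lay below every oil library, and tamoxifen 2 and 3 lay above all of them. For the other members the sums were 1815, 1844 and 1819.0 under oil and 1365, 1987 and 1883 under tamoxifen.

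Base composition moved with the members' deviations in tamoxifen 1. Parp10, at 57.7% GC the richest tested member, deviated by 1.40 on the log2 scale in this library, and Parp11, at 45.9% GC the poorest tested one, by -0.78. Across the 9 tested members Pearson's r between GC content and deviation was 0.74 in tamoxifen 1, -0.34 in tamoxifen 2 and 0.066 in tamoxifen 3. These are correlations across genes that share a library, given as a description. The same held for the whole library, in which 887 tested genes of 57 to 59% GC had a median deviation of 0.86 and 3889 genes of 44 to 50% GC one of -0.36. Set against those medians, Parp9 (46.6% GC, deviation 0.24), Parp14 (46.2% GC, 0.00073) and Parp12 (49.6% GC, 0.56) lay above the median of the latter genes in tamoxifen 1, and Parp11 (-0.78), Parp4 (-0.60), Dtx3l (-0.43) and Parp2 (-0.37) lay below that median. Parp10 lay above the 0.86 of its own class, and Parp3 (54.8% GC, 0.023) lay below the median of 0.59 of the 1298 genes of 54 to 56% GC. A loess correction for GC content gave a Parp9 log2 fold change of 0.50 (limma adjusted p = 0.406), 0.37 for Parp14, 0.36 for Parp10 and 0.22 for Dtx3l. The part of base composition in the members' changes was not tested further.

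**Figure D4:**
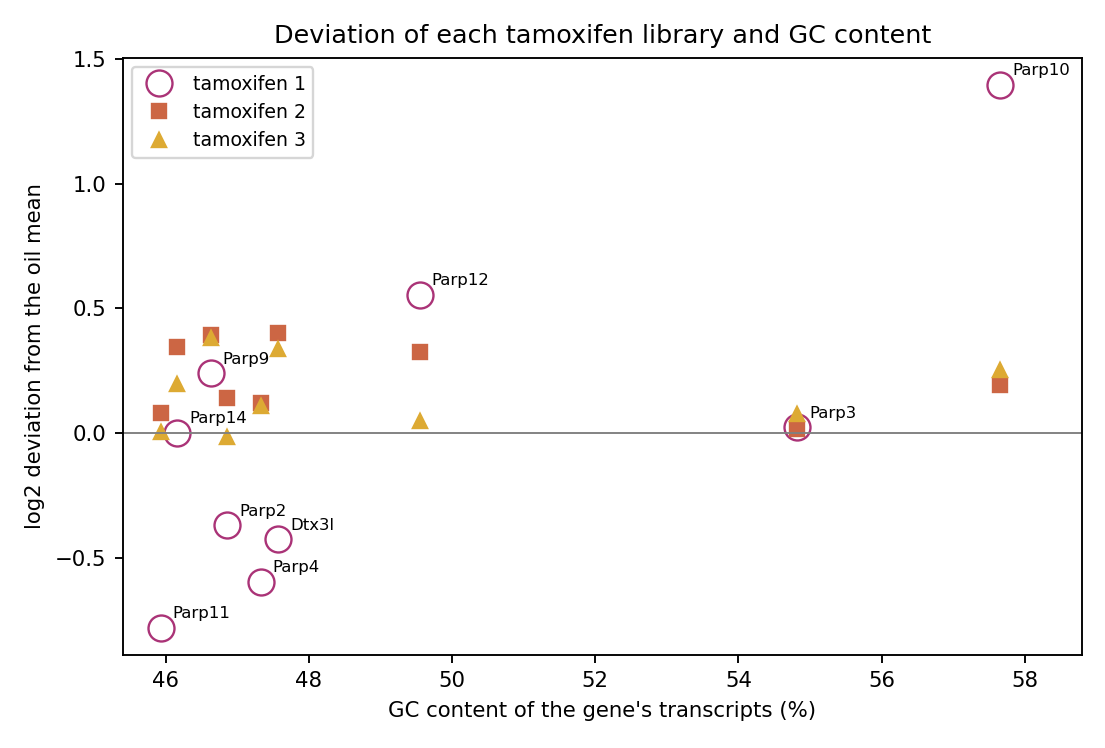
Log2 deviation from the oil mean (y axis) of the 9 tested members against the GC content of their transcripts in percent (x axis), for tamoxifen 1 (hollow circles, named), 2 (squares) and 3 (triangles). Tamoxifen 1 ranges from -0.78 for Parp11 to 1.40 for Parp10, while in tamoxifen 2 and 3 all members lie between -0.017 and 0.40.

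The levels of the members, compared per kilobase of merged exon length, spanned a wide range under oil. Dtx3l stood at 441.5 ± 26.2 normalized counts per kilobase and Parp9 at 414.3 ± 9.24, with overlapping ranges. Parp14 at 346 ± 33.3 and Parp10 at 327.0 ± 4.85 followed and also overlapped each other. Below them came Parp2 at 254 ± 15.6, Parp4 at 114 ± 7.63, Parp12 at 103 ± 4.86, Parp11 at 72.1 ± 3.54, Parp3 at 42.6 ± 7.11 and Parp8 at 0 (SD, n = 3 each). Among these neighbours no other ranges overlapped. Dtx3l exceeded 75.5% and Parp3 21.5% of the tested protein-coding genes, and among these 10 genes Parp12 and Parp11 stood below the strand-break enzyme Parp2. Per kilobase, the order under tamoxifen was led by Parp10 at 541 ± 277, which tamoxifen 1 carried with 861 against 373 and 389 in the other 2.

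Across the 6 libraries, Pearson's r of log2 values was 0.77 between Parp9 and Parp14 and between Parp14 and Dtx3l, but 0.47 between Parp9 and Dtx3l, and -0.96 between Parp10 and Parp11. These coefficients describe 6 libraries, 1 of which stands apart, and all genes share the same depth factors. The genes outside the members whose profile was most like the mean profile of the interferon-induced members were Irgm2 (r = 0.99), Gm15601 (0.96), H2-T24 (0.96), Polr1e (0.93) and Tpsb2 (0.93), each over 6 libraries. Gm15601 had at most 8.08 normalized counts under oil and passed the filter on low values through tamoxifen alone, so nothing is read from its likeness. Irgm2, an interferon-inducible GTPase, had 151, 187 and 119.8 normalized counts under oil and 218, 346 and 265 under tamoxifen, with no overlap. H2-T24, a nonclassical MHC class I gene, had 611, 745 and 644 under oil and 721, 916 and 797 under tamoxifen, where tamoxifen 1 lay below oil 2. Tpsb2, a mast cell protease, had 7.19, 16.4 and 13.0 under oil and 46.0, 153 and 148 under tamoxifen, with the highest log2 fold change of the 5 genes at 3.03.

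The interferon-stimulated reference genes, a list of 20 genes of the antiviral response that holds none of the members, had a higher median change. Of the 18 tested, 4 (Mx1, Mx2, Rsad2 and Cmpk2) stayed below 10 in all oil libraries and passed the filter through tamoxifen alone. Of the other 14, 12 had a positive log2 fold change and 8 an unadjusted p under 0.05, with a median of 0.79, or 0.73 without tamoxifen 1. In these 14, limma called 0 over all libraries and 6 without tamoxifen 1 (Irf7, Isg15, Ifit1, Oas3, Rtp4 and Dhx58). With the 4 included the median was 1.39, or 1.08 without tamoxifen 1, and Mx1 was a further call. Ifit1, which binds viral RNA, had 32.3, 39.6 and 25.1 normalized counts under oil and 298, 226 and 236 under tamoxifen, and Irf7, a transcription factor that amplifies interferon production, had 255, 350.2 and 245 under oil and 1394, 890.1 and 824 under tamoxifen. Neither gene's groups overlapped. Rsad2, the antiviral enzyme viperin, had at most 2.89 normalized counts under oil and between 15.5 and 29.4 under tamoxifen. The members' changes were smaller in size, with 0.61 as the highest log2 fold change of a member and 2.95, for Ifit1, as that of the 14 genes.

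**Figure D5:**
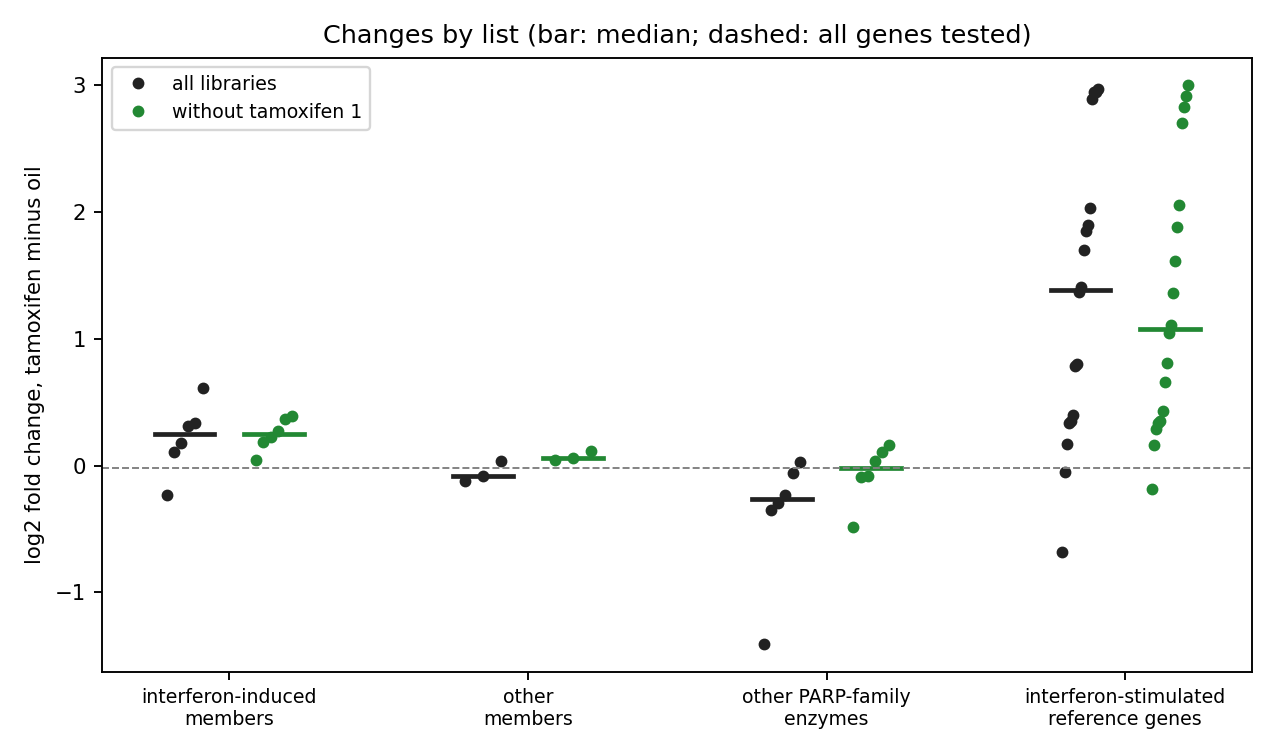
Log2 fold changes (y axis, tamoxifen minus oil) of single genes in 4 lists (x axis), over all 6 libraries (black) and without tamoxifen 1 (green), with the median of each list as a bar and that of all tested genes as a dashed line. The medians over all libraries were 0.24, -0.082, -0.26 and 1.39 from left to right, the last being 0.79 without the 4 genes that passed the filter through tamoxifen alone.

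The other PARP-family enzymes had a median change below 0 over all libraries, and near that of all genes without tamoxifen 1. Of 6 genes tested (Tiparp, Zc3hav1, Parp6, Parp16, Tnks and Tnks2), limma called 0 with or without tamoxifen 1. The median log2 fold change was -0.26, or -0.023 without tamoxifen 1, beside -0.017 and -0.021 over all genes tested. Of the 6, 1 was positive over all libraries and 3 without tamoxifen 1. Tiparp, a target of the aryl hydrocarbon receptor that modifies single residues, was 204, 200 and 205 under oil and 20.4, 149.5 and 140.0 under tamoxifen, below oil in every library. Its log2 fold change was -1.41 (limma adjusted p = 0.666), or -0.48 without tamoxifen 1 (adjusted p = 0.214). Parp6 and Parp16 had log2 fold changes of -0.35 and -0.29 with overlapping groups, and were at -0.092 and -0.083 without tamoxifen 1. Zc3hav1 was at 0.024 with overlapping groups, or 0.16 without tamoxifen 1 (limma adjusted p = 0.432). There its remaining tamoxifen libraries, at 4360 and 4295, lay above every oil library, the highest at 4077.

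Of the deltex ubiquitin ligases, the family of Dtx3l, 3 of 4 were tested and limma called 0, while at an unadjusted p under 0.05 there was 1, Dtx4. Dtx4, a ligase of the Notch pathway, had 2107, 459 and 1328 normalized counts under oil and 3968, 3487 and 3765 under tamoxifen. Every tamoxifen library lay above the widely spread oil libraries, with a log2 fold change of 1.78 (limma unadjusted p = 0.0124, adjusted p = 0.666), or 1.73 without tamoxifen 1 (adjusted p = 0.192), and an adjusted p of 0.0199 with library weights. Dtx2 and Dtx3 had log2 fold changes of 0.17 and 0.099 with overlapping groups, and were at 0.038 and -0.15 without tamoxifen 1.

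Markers of other cell types were read beside the interferon-induced members. Of the macrophage markers, for host cells that the sort on GFP was meant to leave out, limma called 0 over all libraries (smallest adjusted p = 0.666) and 0 without tamoxifen 1 (smallest adjusted p = 0.245). Of 9 markers tested, 1 passed the filter through tamoxifen alone. The other 8 had positive log2 fold changes, 4 with an unadjusted p under 0.05 and 4 with no overlap beside 7.86% of all genes, and the summed normalized counts of the list were 267, 110.0 and 128 under oil and 362, 404 and 298 under tamoxifen. Csf1r, the receptor of macrophage colony-stimulating factor, had 22.5, 10.6 and 14.9 under oil and 33.2, 44.4 and 31.8 under tamoxifen, and C1qa likewise did not overlap. Of 8 neutrophil markers 1 was tested, Mmp8, which had 8.98, 19.3 and 13.0 under oil and 0, 8.08 and 13.6 under tamoxifen (log2 fold change -1.47, limma adjusted p = 0.666). Without tamoxifen 1 the log2 fold change of Mmp8 was -0.30. The sums of the list were 14.4, 27.0 and 19.5 under oil and 62.6, 67.7 and 40.0 under tamoxifen. S100a8, S100a9, Camp, Ltf and Ngp were higher in all 3 tamoxifen libraries, at 21.2 or less, and Ly6g had 0 reads throughout. The B cell sums overlapped, at 6.29, 9.65 and 4.64 under oil and 24.3, 6.06 and 15.5 under tamoxifen, with Cd79b not overlapping (at most 2.89 and at least 5.05) and Ms4a1 at 0. Cd79b and the neutrophil genes that did not overlap were below the filter. The share of genes this low that do not overlap was not computed, so nothing is read from them. The T cell sums, 40.5 to 68.7 under oil and 32.7 to 103 under tamoxifen, came mostly from Lck, while Cd3e, Cd2 and Cd5 were at 0. The dendritic cell sums, 85.3 to 130.2 under oil and 83.8 to 175 under tamoxifen, came mostly from Zbtb46, while Clec9a was at 0. NK cell markers summed to less than 1 normalized count in every library, with Ncr1, Klrb1c, Prf1 and Eomes at 0. What RNA of macrophages, neutrophils or B cells contributed to the members' values was not tested.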

How the data were processed

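Bulk RNA-seq reads were processed by the authors with STAR and DESeq2, and the submitters' processing notes name mm10. The annotation and the strand setting are not given in the sources used here, and libraries were made, per the labels, with the Nextera DNA Flex kit. The deposited values are a signal, read counts scaled by the size factor of their library. Everywhere, 100% of values were whole multiples of the value of 1 read (tolerance 0.05), and dividing by it recovered whole reads. Rows without a gene name (1832 of 55450, under 0.0615% of reads) were left out. The 12298 genes that reached 10 in 3 or more libraries were tested on log2(value + 1) with limma 3.58.1 (trend, R 4.3.3), two-sided, with Benjamini-Hochberg adjustment over all of them. Fold changes on this scale understate those of low genes. Data were simulated with changes of 2 on the log2 scale (dispersion 0.05). Of 200 changed genes 97.5% were recovered, and 8 unchanged genes were called. Neither changes as small as those of the members nor a library that stands apart like tamoxifen 1 was simulated. The recovery therefore does not carry over to these data, in which Ifit1, with a log2 fold change of 2.95, had a limma adjusted p of 0.095 over all libraries. An exact two-sided permutation test of 3 against 3 libraries cannot go below p = 0.1. Each library came from 1 mouse.

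Alternatives were edgeR 4.0.16 and DESeq2 1.42.0 on recovered reads, TMM scaling, other pseudocounts (0.5 and 5), no filter, a GC correction (loess, span 0.3), library weights, the replicate number as a block and each library left out. edgeR and DESeq2 without tamoxifen 1, sums without Parp10 and lists without genes that passed the filter in 1 group only were chosen after seeing the data. Coordinates, exon lengths and GC content came from GENCODE vM21. The members, the split into interferon-induced and other members and the gene lists were chosen with earlier results of these data known. Named genes were the members, up to 3 genes per list with the smallest p, Tnks, Tnks2, Zc3hav1 and markers as list members, and the 5 genes most like the interferon-induced members. Reference genes named as called or as passing the filter in 1 group only, and markers, were named after their values were seen. The values of some marker genes are not reported here.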

Additional observations from a re-analysis of the deposited data

How the results depend on the processing

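The members' count past the limma threshold stayed at 0 under most alternatives and rose to 2 with library weights and with DESeq2 without tamoxifen 1, and to 1 at an unadjusted p of 0.05. The count over all genes was 0 and became 71 with DESeq2, 231 with DESeq2 without tamoxifen 1, 46 with edgeR without tamoxifen 1, 782 with library weights, 2 with the GC correction and 550 at an unadjusted p. Leaving out 1 library gave 0 to 41 genes, with 41 without tamoxifen 1 and 0 without any other, and 0 members each time. The difference between the medians of interferon-induced and other members was 0.33 and lay between 0.18 and 0.39 with 1 library left out. It was 0.18 without tamoxifen 1 in limma, edgeR and DESeq2, and 0.18 with library weights. With Parp10 and Parp11 counted among the other members it was again 0.33. These 2 have the highest and the lowest change of the interferon-induced members, so moving both could not shift either median, and nothing is read from that value. The deltex list reached 1 call with library weights. The interferon-stimulated list reached 9 with DESeq2, with and without tamoxifen 1, 10 with library weights, 7 with edgeR without tamoxifen 1, and 0 to 7 with 1 library left out. Over the 14 of its genes that did not pass the filter through tamoxifen alone, DESeq2 called 6, or 7 without tamoxifen 1, library weights 7, and edgeR and limma without tamoxifen 1 called 6 each. The causes were not tested.

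Without tamoxifen 1 the sign of the log2 fold change turned for Parp11 (0.042 in limma, 0.063 in edgeR, 0.054 in DESeq2), Parp2 (0.063, 0.085 and 0.075) and Parp4 (0.11, 0.14 and 0.13). With library weights it turned for Parp11 (0.0075), Parp2 (0.034) and Parp4 (0.082). The GC correction, with or without the replicate block, turned Parp2 (0.068), Parp4 (0.0036) and Parp3 (-0.13). With 1 library left out, Parp11 lay between -0.39 and 0.042, Parp2 between -0.19 and 0.063, Parp4 between -0.24 and 0.11, Parp3 between -0.11 and 0.12, and Dtx3l between -0.044 and 0.37. Parp3 turned without oil 3, and Dtx3l without tamoxifen 2 (-0.044) or tamoxifen 3 (-0.011). Parp9, Parp14, Parp10 and Parp12 stayed positive under all 18 alternatives, with Parp9 between 0.31 and 0.50 and its adjusted p in limma, edgeR or DESeq2 between 0.00186 and 0.861.

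Libraries of the same number did not deviate together (correlations of -0.024, 0.061 and -0.15), and the replicate block left 0 genes and 0 members called. The median log2 fold change was 0.11 over the 24246 genes of DESeq2 and -0.017 over the 12298 genes of limma, while Parp9 was 0.34 in both. Depth limits Parp8, at 5 reads or fewer, and the 3 libraries per group limit every interval given.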

Other observations

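The genes that remove ADP-ribose, supply NAD or work with the strand-break PARPs showed no call in limma, with or without tamoxifen 1, and none of those that passed the filter had an unadjusted p under 0.05 with all libraries. Of the erasers, 5 of 7 were tested, with a median log2 fold change of 0.051, or -0.020 without tamoxifen 1. The erasers below the filter, Adprhl1 (1, 0 and 0 reads under oil, 9, 2 and 9 under tamoxifen) and Macrod2 (4, 0 and 1, then 8, 10 and 10), did not overlap, with an adjusted p of 0.713 each in limma with no filter. The share of genes this low that do not overlap was not computed. Oard1, which cleaves terminal ADP-ribose, had 904, 836 and 792 normalized counts under oil and 383, 757 and 775 under tamoxifen, lower in every tamoxifen library (log2 fold change -0.47, limma adjusted p = 0.666, and -0.14 without tamoxifen 1). The mitochondrial eraser Macrod1 and the serine ADP-ribose hydrolase Adprhl2 were at 0.51 and 0.45 over all libraries and at 0.064 and 0.018 without tamoxifen 1.

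All 10 repair partners were tested, with a median of 0.094, or -0.094 without tamoxifen 1. Hpf1, the cofactor that directs Parp1 and Parp2 to serine, had 2193, 2378 and 2623 normalized counts under oil and 949.6, 2418 and 2146 under tamoxifen, and its log2 fold change of -0.49 was -0.070 without tamoxifen 1. Polb, a repair polymerase, and Fen1, a flap endonuclease, were at -0.24 and 0.70, and at -0.18 and -0.15 without tamoxifen 1. Of the NAD genes, 8 of 10 were tested, with a median of 0.078, or 0.0070 without tamoxifen 1. Nampt, the rate-limiting enzyme of NAD salvage, had 1409, 1406 and 1761 under oil and 532, 1799 and 1391 under tamoxifen, with a log2 fold change of -0.46, or 0.061 without tamoxifen 1. Nmnat2 and Nmnat1, which make NAD from its mononucleotide, were at 0.34 and 0.29, and at 0.090 and 0.11 without tamoxifen 1.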
